A study of Mus musculus with 8 samples.

Results

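The 10 genes described here encode proteins on the surface of oligodendrocyte progenitor cells (OPCs) or in the matrix around them: Pdgfra, Cspg4, Ptprz1, Vcan, Cspg5, Neu4, Matn4, Lhfpl3, Bcan and Ncan. They were taken by name, all 10 were among the 11315 genes of the RNA tables, and 589 of the 1497075 CpG sites of the DNA tables were assigned to them in the promoter, exon or intron columns. RNA levels and DNA hydroxymethylation, the latter by reduced representation profiling (RRHP), were measured in adult OPCs (aOPC) and adult oligodendrocytes (aOL) sorted from brains of C57BL/6 mice of either sex at postnatal day 60. The aOPC cells were GFP-positive cells of Pdgfra-H2BEGFP mice, in which the reporter is driven from the Pdgfra locus itself, and the aOL cells were GFP-positive cells of Plp-EGFP mice. The labels conflict on aOL: its RRHP samples carry the Pdgfra reporter as tissue, so titles were followed, and its RNA titles say pre-myelinating where the protocol says myelinating. The populations therefore differed in reporter line as well as in cell type, which cannot be told apart. Each population had 2 libraries per assay (8 in all), numbered replicates 2 and 3, and RNA and DNA came from one cell pellet. No source used here says whether a library came from 1 animal or several, so p-values measure the spread between these libraries.

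OPCs persist in the adult brain and generate myelinating oligodendrocytes. Progenitors carry a growth factor receptor for PDGF and large chondroitin sulfate proteoglycans, and they secrete lecticans, proteoglycans that bind hyaluronan and tenascin in the extracellular matrix. Many of these genes are used as markers of the progenitor stage because their transcripts decline as the cells mature. RRHP reads 5-hydroxymethylcytosine (5hmC), the oxidised form of methylcytosine, at CCGG sequences: a glucosylated 5hmC protects the site from the enzyme MspI, and protected sites yield reads.

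The libraries were first compared with markers of the labelled cell types. The 8 myelin genes were as high in aOPC as in aOL, with log2 sums of 22.58 and 22.38 for aOPC against 22.49 and 22.53 for aOL. Mbp, the myelin basic protein, read 19.58 and 17.55 in aOPC against 19.17 and 19.40 in aOL. Of the 8, Mog (difference aOL minus aOPC -0.65), Cldn11 (-0.76) and Opalin (-0.98) were lower in both aOL libraries than in both aOPC libraries, at unadjusted p of 0.0374, 0.0339 and 0.0113 by limma, and Cnp was higher (0.24). The aOPC libraries thus held oligodendrocyte transcripts at the level of the aOL libraries, and this goes against a reading of the aOPC label as progenitors without mature cells. In bulk samples, fewer cells of a type and less RNA per cell cannot be told apart. Of the 8 pericyte and fibroblast markers, 4 were listed in the files and all 4 were lower in both aOL libraries, with log2 sums of 12.25 and 12.07 in aOPC against 8.24 and 7.25 in aOL. Among them Efemp1, a gene of an extracellular matrix protein, fell by 5.37 on the log2 scale (adjusted p = 0.0469 by limma) and was 1 of the 9 genes called among all genes, of which 0 were called without the filter on low values or with a further quantile normalization. Cldn5, the tight junction gene of endothelium and the only 1 of 7 endothelial markers listed, was higher in aOL (0.33 and 1.80 in aOPC against 5.92 and 7.13 in aOL). The summed astrocyte markers ranged from 13.49 to 13.82 in aOPC and from 13.43 to 13.63 in aOL, but 6 of the 8 genes lay below 0 in log2 difference, with a median of -0.68. Gjb6, an astrocyte connexin gene, read 9.90 and 9.44 in aOPC against 7.13 and 6.44 in aOL (adjusted p = 0.106 by limma), whereas Slc1a3, a glutamate transporter gene, was higher in aOL (0.49). The summed microglial markers from 10.22 to 11.40 and from 10.23 to 10.82 in the same order, and the neuronal markers from 12.11 to 12.45 and from 11.66 to 11.82. Of the 7 listed microglial genes 5 lay below 0 (median -0.54), with Tmem119 (-0.73) and C1qa (-0.51) lower in both aOL libraries. Of the 3 tested neuronal genes, Stmn2 (-2.10) and Tubb3 (-0.46) were lower in both aOL libraries, and Snap25 overlapped. The 5 listed genes among 6 further progenitor and lineage markers, among them Olig1, Olig2 and Sox10, summed to 17.53 and 17.28 in aOPC and to 17.25 and 17.32 in aOL. RRHP libraries held from 7113237 to 27057859 counts, and the shallowest was aOPC replicate 2.

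None of the 10 genes passed the RNA test between aOL and aOPC (limma, p under 0.01 and adjusted p under 0.05). Among all 11133 genes tested 9 were called, which is 0.0808%, so the test made few calls on any gene. At an unadjusted p under 0.05, Neu4 and Vcan passed, and 24% of all genes did. On the log2 scale 7 of the 10 differences (aOL minus aOPC) lay below 0, with a median of -0.70, against 48.7% and a median of 0.02 over all genes tested. In 5 genes both aOL libraries lay below both aOPC libraries, as in 29.9% of all genes. In Matn4 alone both lay above them, as in 31.9% of all genes.

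**Figure D1:**
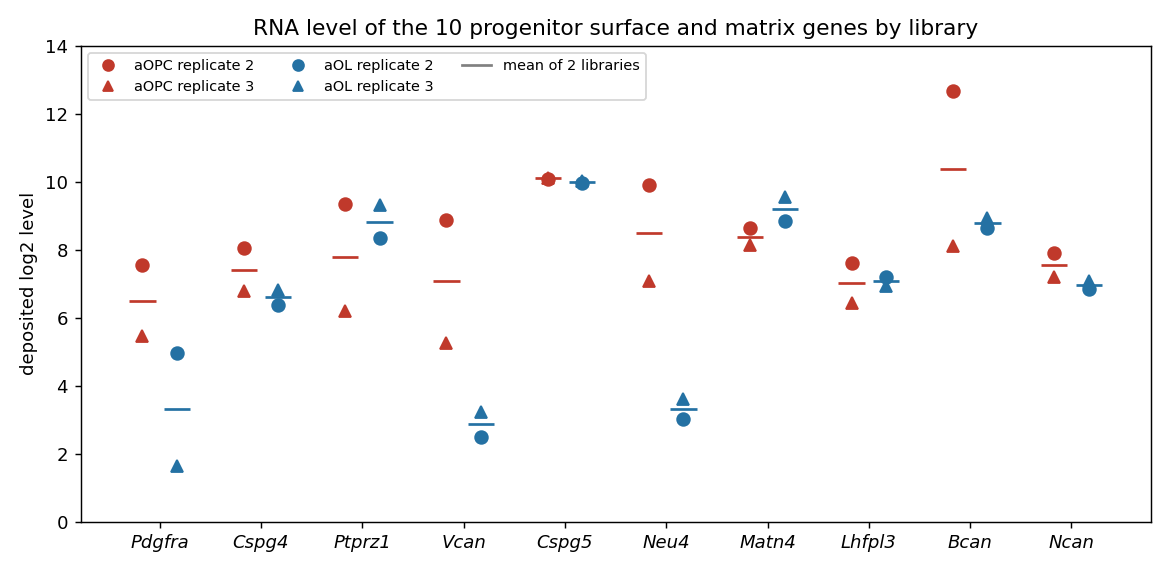
Deposited log2 RNA level (y axis) of each of the 10 genes in the 2 aOPC libraries (red) and the 2 aOL libraries (blue), with circles for replicate 2, triangles for replicate 3 and a line at the mean of each population. Neu4 and Vcan sit below 4 in both aOL libraries, whereas Cspg5 sits near 10 in all 4 libraries.

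Pdgfra (chr5:75152292-75198215, plus strand on GRCm38) encodes the receptor for PDGF-A that drives progenitor division and survival, and its locus carries the reporter used for the aOPC sort. Its log2 level was 7.54 and 5.47 in aOPC against 4.98 and 1.63 in aOL, replicate 2 before replicate 3 here and throughout. The populations did not overlap, but the lower aOPC library and the higher aOL library lay closer together than the libraries within either population. The difference was -3.20 ± 1.37 (SE, n = 2 per population; adjusted p = 0.250 by limma; 95% interval from -6.96 to 0.56). Exons of Pdgfra overlap Mir7025 on the same strand and Gm42802 and Gm42803 on the other, and whether the counting used strand is not given in the sources used here.

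Cspg4 (chr9:56865033-56899870, plus strand) encodes the NG2 proteoglycan, a transmembrane protein that marks OPCs and also pericytes. Its level was 8.05 and 6.79 in aOPC against 6.39 and 6.83 in aOL, so that aOPC replicate 3 fell between the aOL libraries. The difference was -0.81 ± 0.50 (SE; adjusted p = 0.374 by limma), and it ran from -1.44 without aOPC replicate 3 to -0.18 without aOPC replicate 2. Ptprz1 (chr6:22875502-23052916, plus strand) encodes a receptor-type tyrosine phosphatase that carries chondroitin sulfate chains and binds pleiotrophin. It read 9.34 and 6.21 in aOPC against 8.34 and 9.33 in aOL, and the aOPC libraries lay on either side of the aOL libraries. The difference of 1.06 ± 1.15 (SE) had an adjusted p of 0.595 by limma.

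The lecticans are given next, and differences between them were not tested. Vcan (chr13:89655312-89742509, minus strand), which encodes versican, read 8.87 and 5.27 in aOPC against 2.49 and 3.24 in aOL. The populations did not overlap, and the difference was -4.20 ± 1.29 (SE; unadjusted p = 0.0292, adjusted p = 0.178 by limma; 95% interval from -7.73 to -0.68). Bcan (chr3:87987531-88000230, minus strand), which encodes the brain-specific lectican brevican, read 12.66 in aOPC replicate 2 and 8.12 in aOPC replicate 3, a gap of 4.54 that was the widest of the 10 genes between the aOPC libraries. Its aOL values of 8.64 and 8.94 lay between them, and the difference of -1.60 ± 1.59 (SE) had an adjusted p of 0.561 by limma. Without aOPC replicate 2 the sign turned, to 0.67. Ncan (chr8:70093085-70120873, minus strand), which encodes neurocan, read 7.91 and 7.19 in aOPC against 6.83 and 7.09 in aOL, without overlap but with a difference of only -0.59 ± 0.32 (SE; adjusted p = 0.327 by limma) that ran from -0.95 without aOPC replicate 3 to -0.23 without aOPC replicate 2.

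Cspg5 (chr9:110243783-110262576, plus strand), which encodes the transmembrane proteoglycan neuroglycan C, was the steadiest of the genes. It read 10.09 and 10.12 in aOPC against 9.96 and 10.02 in aOL, a difference of -0.11 ± 0.19 (SE; adjusted p = 0.721 by limma; 95% interval from -0.62 to 0.39).

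Neu4 (chr1:94020451-94028334, plus strand), a sialidase that removes sialic acid from glycoconjugates, had the lowest difference of the 10 genes. Its level was 9.90 and 7.07 in aOPC against 3.03 and 3.61 in aOL, so that all values of one population lay over 3 log2 units from those of the other. The difference was -5.17 ± 1.02 (SE; unadjusted p = 0.00646, adjusted p = 0.133 by limma; 95% interval from -7.96 to -2.38). The aOL values of Neu4 and Vcan lay among the lowest 1.48% of genes in their libraries, each held by 17 or more genes. The value of Pdgfra in aOL replicate 3 lay among the lowest 0.910% and was held by 85 genes. These differences thus rest on values at the low end of the scale. In aOPC, 14.6% and 4.31% of genes lay at or below the values of Pdgfra. For Vcan these shares were 25.8% and 3.78%, and for Neu4 39.0% and 11.5%. Pdgfra, Vcan and Neu4 were lower in aOL together with the 4 pericyte and fibroblast markers given above. By sign alone, so were 6 of the 8 astrocyte, 5 of the 7 microglial and 3 of the 3 tested neuronal markers, with Snap25 at -0.004. Over all genes tested, the share below 0 was 48.7%. Of these markers 3, 2 and 2 did not overlap between the populations, against 29.9% of all genes. Cldn5 (5.46), Slc1a3 (0.49) and Itgam (1.18) were higher in aOL without overlap. The part of these cell types in the differences was not tested.

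Matn4 (chr2:164389393-164405160, minus strand) encodes matrilin 4, an adaptor protein of the extracellular matrix. It read 8.63 and 8.14 in aOPC against 8.84 and 9.54 in aOL, a difference of 0.80 ± 0.35 (SE; adjusted p = 0.256 by limma) that lay between 0.45 and 1.15 with 1 library left out. Its exons overlap those of Rbpjl on the opposite strand. Lhfpl3 (chr5:22746059-23275597, plus strand), a tetraspan membrane protein gene expressed in OPCs, read 7.62 and 6.43 in aOPC against 7.21 and 6.92 in aOL, where the aOL values lay inside the aOPC range. The difference was 0.04 ± 0.46 (SE; adjusted p = 0.962 by limma; 95% interval from -1.23 to 1.31), and an antisense gene, A930003O13Rik, shares exonic sequence with it.

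Levels can be compared between genes only per exon length. On the log2 scale per exonic kilobase, Bcan was highest in aOPC (mean 8.37), followed by Cspg5 (6.77), Neu4 (6.27) and Matn4 (6.02). This order rested on aOPC replicate 2: in replicate 3 Bcan (6.10) was below Cspg5 (6.78), and Neu4 (4.86) was below Matn4 (5.77). In aOL the leading genes were Matn4 (6.82), Bcan (6.77) and Cspg5 (6.66), which lay within 0.2 of each other, less than the spread between the Matn4 libraries. The genes that were lowest in aOL were Neu4 (1.11), Pdgfra (-0.02) and Vcan (-0.99).

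The aOPC replicates stood apart at these genes. Replicate 2 was above replicate 3 in 9 of the 10 genes, as in 44.5% of all genes, with Cspg5 the exception. The replicates were over 1 log2 unit apart in 7 of the 10 genes in aOPC and in 1 of 10, Pdgfra, in aOL, where the shares over all genes were 18.3% and 3.21%. Gpr17, a receptor gene of committed oligodendrocyte precursors, showed the same order, at 12.64 and 8.20 in aOPC against 9.88 and 9.93 in aOL. So did markers of other cell types in aOPC, such as the myelin gene Mobp (17.94 and 16.57), the microglial gene Csf1r (10.08 and 7.86) and the neuronal gene Snap25 (8.70 and 4.98). The myelin gene Mog (17.59 and 17.76) and the neuronal gene Tubb3 (11.84 and 12.41) had the opposite order. Calls at single genes depended on which library was left out, but so did the number of calls over all genes. Without aOPC replicate 3, when the single aOPC library left is assumed to vary like the aOL libraries, Neu4 (-6.58), Vcan (-6.00) and Bcan (-3.87) were called, as were 17.7% of all genes. Without aOPC replicate 2, Neu4 (-3.75) was called, as were 34.2% of all genes, and the difference of Vcan was -2.41. With 1 aOL library, whose spread is likewise taken from the other population, Pdgfra was called without aOL replicate 2 (-4.87) among 1.02% of all genes, but its difference was -1.53 without aOL replicate 3 (adjusted p = 0.794 by limma), and Neu4 without aOL replicate 3 (-5.46) among 0.952%.

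**Figure D2:**
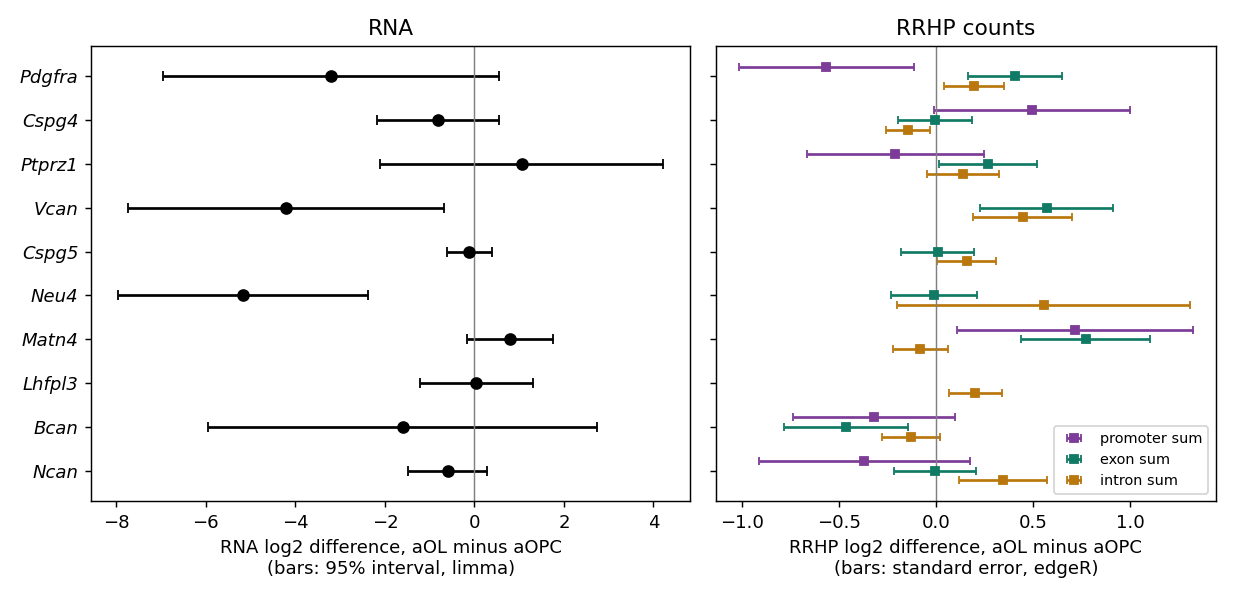
Difference between aOL and aOPC (x axes, log2, aOL minus aOPC) of each gene in RNA with 95% intervals from limma (left) and in RRHP counts summed over promoter, exon and intron sites with standard errors from edgeR (right). The RNA intervals of Neu4 and Vcan lie below 0 before adjustment, and the RRHP differences lie between -0.57 and 0.77.

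Partners of these genes were examined in 9 lists of 81 genes: PDGF ligands and receptors, chondroitin sulfate synthesis, the hyaluronan and tenascin scaffold, lectican proteases, ligands and relatives of PTPRZ1, sialidases, matrilins, the Lhfp family and heparan sulfate proteoglycans. Of these, 51 were tested in RNA and 1 was called. Gpc3, a membrane-anchored heparan sulfate proteoglycan, read 7.77 and 7.34 in aOPC against 3.03 and 2.83 in aOL, and fell by 4.63 on the log2 scale (SE 0.24, adjusted p = 0.0469 by limma). The call was lost without the filter on low values (adjusted p = 0.0581), with a further quantile normalization (0.0520) and with a variance trend (0.0773), and held with each library left out (0.00441 to 0.0380), where the difference ran from -4.84 to -4.42. Both aOL values lay among the lowest 1.18% of genes in their library and were each held by at least 22 genes. At an unadjusted p under 0.05, 10 partners were higher and 2 lower in aOL, and the shares over all genes were 12.1% and 12%.

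The enzymes that build chondroitin sulfate chains had 17 tested genes, of which 3 were higher in aOL and none lower at an unadjusted p under 0.05, with a median difference of 0.19. Chst3, a chondroitin 6-sulfotransferase, read 10.90 and 10.22 in aOPC against 12.23 and 11.87 in aOL (difference 1.49 ± 0.33 SE, adjusted p = 0.137 by limma). Dsel, which converts chondroitin to dermatan sulfate, had a difference of 0.70 ± 0.20 (SE; adjusted p = 0.165 by limma). Among 6 tested proteases of the lecticans, 2 were higher at that threshold: Mmp2, which read 8.44 and 7.84 in aOPC against 9.46 and 9.26 in aOL, and Adamts4, an aggrecanase that cleaves brevican and versican, which read 14.92 and 14.79 in aOPC against 15.50 and 15.51 in aOL. Neither passed after adjustment (adjusted p = 0.145 and 0.171 by limma).

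Of the 7 tested ligands and relatives of PTPRZ1, 2 were higher and 1 lower. Ptn, which encodes the ligand pleiotrophin, read 14.67 in both aOPC libraries and 13.99 and 14.18 in aOL (difference -0.59 ± 0.20 SE, adjusted p = 0.191 by limma), and Ptprg, a related phosphatase, had a difference of 1.22 ± 0.41 (SE; adjusted p = 0.191 by limma). In the PDGF family Pdgfa, the ligand of the PDGFRA receptor, read 12.72 and 12.47 in aOPC against 12.02 and 12.06 in aOL (adjusted p = 0.208 by limma), and Pdgfc had a difference of 0.37 (adjusted p = 0.363). The scaffold list had 3 tested genes and none passed. Tnr, which encodes the lectican ligand tenascin-R, read 8.31 and 5.47 in aOPC against 6.31 and 5.14 in aOL, and Cd44, a hyaluronan receptor gene, had a difference of -0.07.

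The remaining lists were short. Matn2, the only matrilin tested, had a difference of 0.60 ± 0.22 (SE), and Lhfpl4, of the Lhfp family, read 10.06 and 10.02 in aOPC against 11.08 and 11.12 in aOL (difference 1.06 ± 0.19 SE, adjusted p = 0.127 by limma), whereas Lhfpl2 had a difference of 0.67. Neither of the 2 tested sialidases passed, with differences of -0.28 in Neu1 and 0.65 in Neu3. Of the 9 tested heparan sulfate proteoglycans, Hspg2, which encodes perlecan, was higher in both aOL libraries (7.41 and 7.63 in aOPC, 9.40 and 9.18 in aOL, adjusted p = 0.106 by limma).

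**Figure D3:**
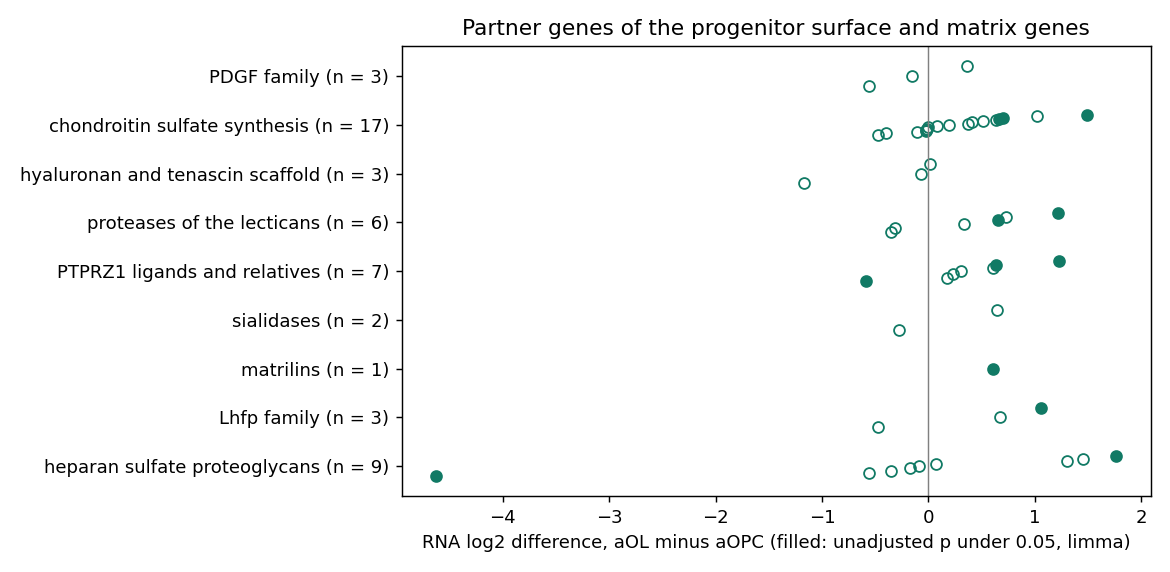
RNA difference between aOL and aOPC (x axis, log2) of the 51 tested partner genes in 9 lists (rows), filled where the unadjusted limma p was under 0.05. Gpc3 is the filled point at -4.63, and 10 of the filled points lie above 0.

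The spans of the 10 genes hold 597 CCGG sequences in the GRCm38 genome, the mm10 build of the files, and 69.8% of them had RRHP reads in at least 1 library, against 67.8% of the genome's CCGG on chromosomes 1 to 19 and X. Coverage was lowest in Ptprz1 (41.8%) and highest in Bcan (88.6%). Lhfpl3, a gene of 529.5 kb, held 211 CCGG and 175 of the 589 sites, where each strand of a CCGG counts as a site. Signal in the members' exon sites averaged 1.11 and 1.23 CPM (counts relative to the library total) per site in aOPC against 1.24 and 1.14 in aOL, above the 0.64 to 0.69 of all exon sites. Cspg4 supplied 45 of the 154 exon sites and more exon counts than any other of the genes. The 415 intron sites averaged from 0.70 to 0.90 CPM, and all intron sites from 0.73 to 0.81. In CpG islands, the 86 sites averaged 0.50 and 0.28 CPM in aOPC against 0.29 and 0.28 in aOL. Together the sites held 476 and 550 CPM in aOPC against 580 and 530 CPM in aOL, with overlapping populations. Ncan differed from the rest in that 42.6% of its counts lay in CpG islands, and its 5 Mb bin ranked 25 of 532 by the share of tested sites called with counts at or under the floor of 3 in one population. None of the 11 tested Ncan sites was of that kind.

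Of the 225 sites of these genes that reached 10 reads in 2 or more libraries, 1 was called between aOL and aOPC (edgeR, adjusted p under 0.05), where 2.29% of all tested sites were. At an unadjusted p under 0.05, 15 were higher and 10 lower in aOL, and the shares over all sites were 5.45% and 4.31%. In 59 sites both aOL libraries lay above both aOPC libraries in CPM and in 38 below, with shares over all sites of 23.3% and 17.2%. The median difference was 0.09 on the log2 scale.

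**Figure D4:**
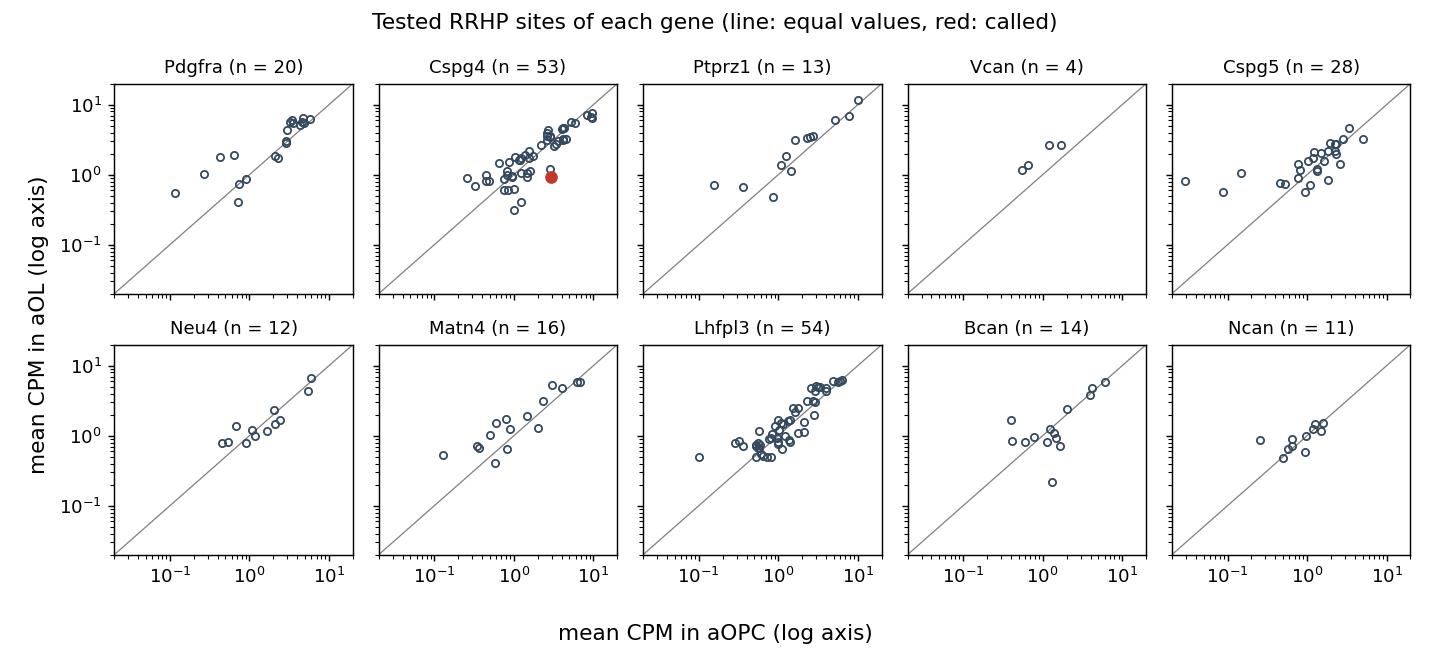
Mean CPM in aOPC (x axis, log scale) and aOL (y axis, log scale) of each tested RRHP site, 1 panel per gene, with a line at equal values and the called site in red. Most sites lie near the line, and the called Cspg4 site has 2.90 CPM in aOPC and 0.926 in aOL.

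The called site lay in an intron of Cspg4, 11744 bases from the gene start. It had 23 and 44 reads in aOPC against 13 and 28 in aOL, that is 3.23 and 2.57 CPM against 0.816 and 1.03, without overlap. The difference was -1.68 ± 0.40 (log2, SE; adjusted p = 0.0401 by edgeR). The call was lost with DESeq2 (adjusted p = 0.181), with no filter on counts, with 10 reads required in every library, and when any 1 of the 4 libraries was left out, while the difference stayed between -2.00 and -1.42 in these settings. At the most covered Cspg4 site the difference was -0.44 ± 0.29 (SE). There it was -0.054 without aOPC replicate 2 and -0.81 without aOPC replicate 3.

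The CCGG sequences of the sites with the smallest p in Cspg4, Cspg5, Pdgfra and Bcan are shown because the single-site comparison rests on them, 30 bases of GRCm38 each in the 5′ to 3′ direction of the strand read, with the CCGG in capitals.
Cspg4 intron, chr9:56876763-56876792, plus strand: acttgatcacccaCCGGcttctgagaagac
Cspg5, chr9:110258396-110258425, minus strand: gtggaatgtgttcCCGGgaagtcacgaggt
Pdgfra untranslated region, chr5:75195114-75195143, plus strand: ggtatcatcttctCCGGgagcctcctcggg
Bcan intron, chr3:87989599-87989628, minus strand: tgtaattcccgttCCGGgttgcccctctga

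**Figure D5:**
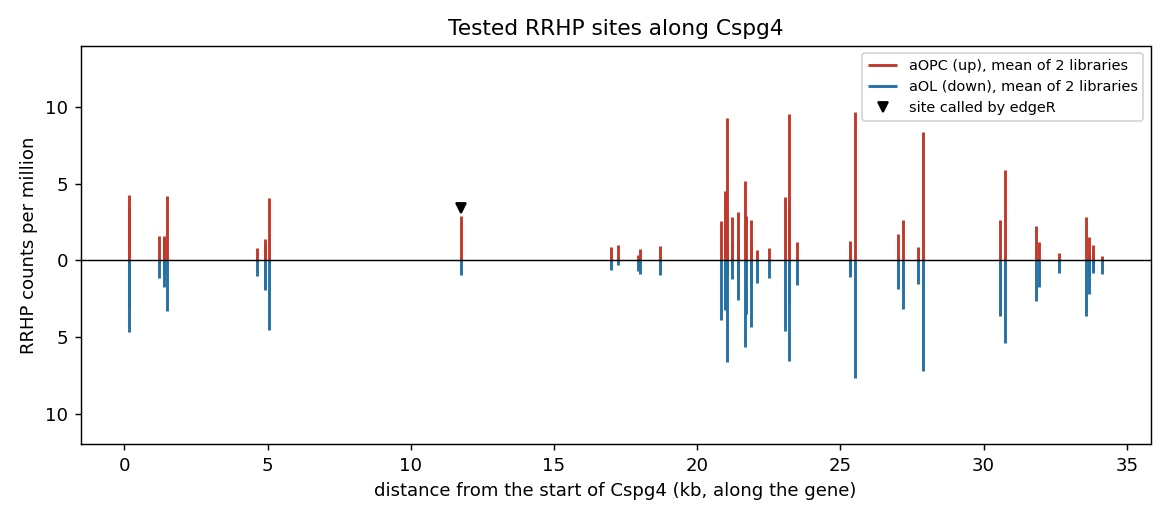
RRHP signal (y axis, mean CPM of 2 libraries) at the 53 tested sites of Cspg4 by distance from the gene start (x axis, kb), with aOPC drawn upwards and aOL downwards. The called site (triangle) stands alone in a stretch without other tested sites, and the strongest sites lie beyond 20 kb.

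The other 3 sites had more signal in aOL but did not pass after adjustment. The Cspg5 site, placed in an intron by the files and in an untranslated region by GENCODE, had 0 and 1 reads in aOPC against 18 and 13 in aOL, where a count of 0 to 3 is at the floor (adjusted p = 0.0741 by edgeR). It was called without a filter (adjusted p = 0.00997), without aOL replicate 3 (0.0210) and with the replicate number as a block (0.0210). The Pdgfra site had 2 and 10 reads in aOPC against 36 and 37 in aOL, a difference of 1.80 ± 0.53 (SE; adjusted p = 0.125 by edgeR). The Bcan site had 2 and 9 reads in aOPC against 33 and 36 in aOL, a difference of 1.83 ± 0.53 (SE; adjusted p = 0.121 by edgeR). Of the 20 tested Pdgfra sites, 4 had an unadjusted p under 0.05 by edgeR, all higher in aOL. Of the 53 in Cspg4, 1 was higher and 5 were lower, among the latter both strands of 1 CCGG, which are not independent. Cspg5 had 3 higher and 2 lower, Bcan 1 higher and 2 lower, and Matn4 2 higher. Over all tested sites, 5.45% were higher and 4.31% lower at that threshold.

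In the remaining genes the smallest adjusted p at a single site was 0.245, at a Ptprz1 site of a coding exon with 1 and 3 reads in aOPC against 10 and 22 in aOL. That of Ncan was 0.357 (2 and 4 reads in aOPC, 17 and 18 in aOL), that of Vcan 0.389 (6 and 27 reads, 44 and 69), that of Lhfpl3 0.402 (1 and 1 reads, 10 and 10) and that of Matn4 0.439 (3 and 13 reads, 28 and 35). Neu4, which had the lowest RNA difference, had no site with an unadjusted p under 0.05 among its 12 tested sites, and the smallest adjusted p was 0.644. The most covered site of the 10 genes, in a Ptprz1 intron, had 7.31 and 12.8 CPM in aOPC against 12.18 and 11.01 CPM in aOL, with overlap.

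Summed over their sites, none of the genes was called between the populations by edgeR, nor by DESeq2, and at an unadjusted p under 0.05 Matn4 passed in exons and no gene in promoters or introns. In promoters, where 0.768% of all genes were called, 6 of the 8 genes with sites were tested and the smallest adjusted p was 0.998. The promoter signal of Bcan was 12.8 CPM in aOPC replicate 2 and 2.80 in aOPC replicate 3, against 3.27 and 4.03 in aOL, and Pdgfra, Ptprz1 and Ncan were likewise highest in aOPC replicate 2. That library had a promoter scaling factor of 1.75, where the other 3 had from 0.757 to 0.936, so CPM values and scaled differences part here. Without scaling, the median promoter difference of all genes moved to -0.60 from -0.01. Matn4 had 12.8 CPM in each aOPC library and 16.3 and 15.5 in aOL, a difference of 0.72 ± 0.61 (SE). That difference was 0.26 without aOPC replicate 2, 1.38 without aOPC replicate 3 and 0.32 without scaling. Cspg5 and Neu4 had no promoter site with reads, and Vcan and Lhfpl3 were too low to be tested.

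In exons, where 0.453% of all genes were called, 9 genes were tested. Matn4 had the highest difference, with 2.53 and 3.39 CPM in aOPC against 5.71 and 4.47 in aOL (0.77 ± 0.33 SE, unadjusted p = 0.0379, adjusted p = 0.849 by edgeR). Vcan (0.57 ± 0.34 SE) and Pdgfra (0.41 ± 0.24 SE) were also higher in both aOL libraries than in both aOPC libraries, so that 3 of the 9 genes were, as were 18% of all genes. Without aOPC replicate 2 the difference was 0.35 in Vcan and 0.078 in Pdgfra. Cspg4, which had the largest exon signal of the 10 genes, read 86.5 and 94.3 CPM in aOPC against 89.8 and 84.7 in aOL, and Neu4 read 20.7 and 27.7 in aOPC against 25.6 and 21.8 in aOL, both with overlap. Bcan had the lowest difference (-0.46 ± 0.32 SE), and Cspg5 (0.01 ± 0.19 SE) and Ncan (-0.01 ± 0.21 SE) lay at 0 within their errors. The Bcan difference was -0.17 without aOL replicate 3. Without aOPC replicate 2 it was -0.086, and Neu4 (-0.27) and Cspg4 (-0.15) were then lower. Lhfpl3 had no exon site with reads.

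In introns, where 1.05% of all genes were called, all 10 genes were tested and 7 lay above 0 in log2 difference, with a median of 0.18 against -0.005 over all genes. Lhfpl3 had the largest intron signal, with 90.0 and 118 CPM in aOPC against 127 and 120 in aOL (difference 0.20 ± 0.14 SE). Without aOPC replicate 2 this difference was 0.042. Vcan read 4.92 and 3.85 CPM in aOPC against 5.97 and 6.02 in aOL (0.45 ± 0.25 SE, adjusted p = 0.703 by edgeR). Its difference was 0.24 without aOPC replicate 3, 0.62 without aOPC replicate 2 and 0.94 over sites with 3 reads in every library. Ncan read 5.48 and 5.43 CPM in aOPC against 6.53 and 7.58 in aOL (0.34 ± 0.23 SE). Cspg4 was the only gene with both aOL libraries below both aOPC libraries, as in 17.6% of all genes. It read 54.5 and 52.4 CPM in aOPC against 51.4 and 47.8 in aOL (-0.15 ± 0.11 SE). In Lhfpl3, Vcan and Ncan both aOL libraries lay above both aOPC libraries, as in 22.5% of all genes. Vcan, whose RNA difference was -4.20, thus had intron and exon differences above 0. Without aOPC replicate 3, Pdgfra, Matn4 and Bcan were called in exons (0.89, 1.12 and -0.87), where 15.8% of all genes then were, and Lhfpl3, Pdgfra and Ptprz1 in introns (0.41, 0.43 and 0.51), where 20.7% were. Leaving out any other single library gave no call in the sums. Among the partner genes, none of 66 promoter sums, 72 exon sums and 76 intron sums was called by edgeR, and the smallest adjusted p was 0.0564, in the Hspg2 promoter.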

How the data were processed

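RNA and DNA were measured in sorted aOPC and aOL cells. The deposited RNA values are log2 levels per gene, near quantile-normalized by the authors, who aligned to mm10 with BWA, counted reads in exons (featureCounts) and applied DESeq2. For RRHP the authors deposited raw counts of reads for every CpG site on each strand. The RRHP aligner and the treatment of duplicate reads are not given in the sources used here. Groups followed the sample titles.

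RNA was tested with limma 3.58.1 on genes that reached a log2 level of 5 in 2 or more libraries. RRHP sites (10 or more reads in 2 or more libraries) and sums per gene (filterByExpr) were tested with edgeR 4.0.16 (quasi-likelihood, TMM), and DESeq2 1.42.0 was an alternative. Adjusted p-values are Benjamini-Hochberg over all features. Leave-one-out fits kept the features of the full fit, a choice made after fits that filtered anew had been seen. The floor was 3 counts per library, from 0.111 to 0.422 CPM, for counting error only. RNA depth is unknown. All 10 genes were named. Among sites, the called, most covered and smallest-p site of each gene were named, as were the called genes and the 2 smallest-p genes of each partner list. Members and lists were chosen with earlier results of these data known. Fits were tested on simulated data. Gene spans and annotation came from GENCODE vM21. R 4.3.3 and Python 3.11.15 were used.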

Additional observations from a re-analysis of the deposited data

How the results depend on the processing

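With 2 libraries against 2, a single library decided several values. Of the 10 genes, 0 were called in RNA, also without the filter, with a further quantile normalization and with a variance trend, and from 1 to 3 in leave-one-out, where from 0.952% to 34.2% of all genes were called. Of single sites 1 was called, also without scaling (with 2.51% of all sites called) and with strands summed (1.95%). Without a filter 3 were called (1 in Lhfpl3 and 2 in Cspg5, all higher in aOL and not the Cspg4 site), with 1.55% of all sites. With 10 reads in every library 0 were called (0.286% of all sites), and 0 with DESeq2 (1.5%). Without aOL replicate 3, the difference was 4.45 at a Cspg5 site and -4.10 at a Bcan site. Sums gave 0 calls in each region and setting, except 3 in exons and 3 in introns without aOPC replicate 3 (0 to 3 in leave-one-out), where 15.8% and 20.7% of all genes were called. The same replicate numbers came from different animals and did not pair the libraries: the correlation of same-numbered deviations was -0.074 in RNA and -0.080 in RRHP. With the number as a replicate block, 1 gene (Pdgfra, adjusted p = 0.0404 by limma) and 2 sites were called, where 1.14% of all genes and 2.94% of all sites were, and Gpc3 held (adjusted p = 0.0114). The cause of these changes was not tested.

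Differences near 0 changed sign. Without the filter on low counts, the log2 difference became 0.010 at the most covered site of Bcan, 0.054 at that of Lhfpl3, 0.048 at that of Pdgfra and 0.082 at that of Ncan, and 0.020, 0.018 and 0.014 in the exon sums of Cspg4, Ncan and Neu4. With 10 reads in every library, those of Lhfpl3, Pdgfra and Ncan became 0.042, 0.053 and 0.11. Under the replicate block, the Pdgfra site became 0.040 and the exon sums of Cspg4 and Neu4 0.0017 and 0.017. Without scaling, the Ncan site became 0.012 and the Cspg5 exon sum -0.034, which was -0.0018 with DESeq2.

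In leave-one-out, the RNA difference ran from -3.87 to 0.67 in Bcan, from -0.55 to 0.64 in Lhfpl3 and from -0.51 to 2.62 in Ptprz1. At the most covered site it ran from -0.13 to 0.23 in Neu4, -0.37 to 0.068 in Bcan, -0.28 to 0.0011 in Lhfpl3, -0.51 to 0.87 in Pdgfra, -0.13 to 0.43 in Ptprz1 and -0.47 to 0.22 in Ncan. The promoter sums ran from -0.76 to 0.31 in Bcan, -0.83 to 0.31 in Ncan and -0.53 to 0.20 in Ptprz1. The exon sums ran from -0.15 to 0.15 in Cspg4, -0.043 to 0.061 in Cspg5, -0.059 to 0.026 in Ncan and -0.27 to 0.33 in Neu4, and the intron sums from -0.28 to 0.0030 in Bcan and -0.105 to 0.51 in Ptprz1. Depth limits the single sites: 364 of the 589 sites were too low to be tested.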
